A study of Mus musculus with 12 samples.

Results

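Of the 12 mouse RNA-seq libraries of a study of the splicing factor Srsf10 in the developing neocortex, 6 came from cultured neural progenitor cells (NPC) and are described here: 3 labelled Srsf10 knockdown and 3 controls, compared over all genes with same-numbered libraries taken as 3 pairs. By the labels, both groups were primary progenitors from cortex of C57BL/6 mice, grown in suspension with bFGF, EGF, heparin and B27 supplement. The treatment text, the same for both groups, names a lentivirus for Srsf10 knockdown, a multiplicity of infection of 30 and RNA extraction 72 h after infection. Controls are given a wild-type genotype, and which virus they received is not said. Neither the age of the donor animals nor whether each library is a separate culture is given, so the p-values measure only the spread between these libraries and pairs, which may be technical. The 6 libraries held 26074094 to 30608918 counts. A gene's level is given in counts-per-million (CPM) after TMM normalisation, which scales libraries to a common composition, and a change is the log2 fold change of labelled knockdown over control, positive where labelled knockdown was higher, with its standard error (SE).

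Neural progenitors line the ventricles of the embryonic cortex, divide to renew themselves and give rise to neurons and later to glia. A dividing progenitor makes the DNA replication machinery in S phase and the spindle, kinetochore and cytokinesis proteins in G2 and mitosis, and the genes of each phase are transcribed together. It also builds membrane, for which cholesterol and fatty acids are made by enzymes whose genes share control by the SREBP transcription factors. Srsf10 itself belongs to the SR protein family, which binds RNA and steers the choice of exons.

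The targeted transcript was not measurably lower. Srsf10 (ENSMUSG00000028676, mm10 chromosome 4, 135855747 to 135869908, plus strand) stood at 249, 227 and 223 CPM in control libraries 1, 2 and 3 and at 239, 220.2 and 217 CPM in the libraries labelled knockdown. Each labelled knockdown library lay slightly below its partner, the groups overlapped, and the log2 fold change was -0.05 (SE 0.05, adjusted p = 0.530) with a 95% interval of -0.15 to 0.06. The count covers the whole gene and does not measure the protein. All directions below therefore rest on the labels. Nasp, a histone chaperone, stood at 284, 241 and 187 CPM in controls and 338, 272 and 249.7 CPM in labelled knockdown, higher in every pair (0.28 ± 0.06 SE on the log2 scale, adjusted p = 0.00225) and not called without the pairing (adjusted p = 0.441).

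With the 3 pairs as a block, 14258 genes were tested by the quasi-likelihood test of edgeR, and 1696 (11.9%) were higher and 1826 (12.8%) lower at a Benjamini-Hochberg adjusted p under 0.05, so that 24.7% passed in either direction. Of these 3522 genes, 3505 moved the same way in all 3 pairs, and 7674 of all genes tested (53.8%) did so. Those 7674 were 3876 higher and 3798 lower in labelled knockdown. Most changes were small: 2823 of the 3522 were under 1.5-fold, 93 were at least 2-fold higher and 107 at least 2-fold lower. The pairing carries most calls. Without it, edgeR found 50 genes higher (0.351%) and 220 lower (1.54%), all 270 of them also called with pairs in the same direction. Leaving out pair 1, 2 or 3 gave 2158, 1052 and 763 genes higher and 2218, 1118 and 873 lower, so counts of a list without pair 2 or 3 are to be read against that. The log2 ratios of the pairs correlated across the 14258 genes with Pearson's r of 0.31 (pairs 1 and 2), 0.28 (1 and 3) and 0.49 (2 and 3), as a description across genes that are not independent replicates. The median over all genes was 0.00 in each pair. Called genes were more frequent at high expression: among genes with a mean under 1 CPM, 2.28% were higher and 1.74% lower, against 13.1% and 19.7% at 100 CPM or more.

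Markers of the cells in the culture were read first. The summed level of 23 radial glia and progenitor markers was 15969 to 17084 CPM of library totals in controls and 16509 to 18559 in labelled knockdown, with overlap. This sum fell in pair 1 and rose in pairs 2 and 3. Of the 22 markers tested 5 were called higher and 4 lower, and Emx1 had 0 counts in all 6 libraries. Sums for 16 astrocyte markers were 3295 to 3423 and 3448 to 3922 CPM, for 16 oligodendrocyte lineage markers 3114 to 3189 and 3243 to 3437 CPM, and for 10 intermediate progenitor markers 101 to 117 and 124 to 178 CPM, each without overlap between groups. Single members of these 3 lists went both ways. Called higher and lower were 4 and 3 of 15 tested astrocyte markers and 2 and 3 of 13 oligodendrocyte lineage markers. For intermediate progenitor markers it was 1 and 1 of 5 tested. Of these 10 markers 6 were under 1 CPM in every library. The sums of 16 neuron markers (1598 to 1842 and 1731 to 2359 CPM) and of 18 ventral forebrain markers (110 to 154 and 129 to 169 CPM) overlapped. Both sums nevertheless rose in all 3 pairs. Of the ventral forebrain markers 9 were under 1 CPM in every library. Microglial genes were nearly absent: their sum stayed at 28.9 to 32.2 CPM over all 6 libraries, 9 of 12 were under 1 CPM in every library and 2 were at 0. Meningeal (54.7 to 106 and 36.7 to 76.7 CPM), endothelial (88.7 to 101 and 78.7 to 99.3 CPM) and choroid plexus sums (36.8 to 52.8 and 50.3 to 99.4 CPM) overlapped between groups. In all 3 pairs the meningeal and endothelial sums fell and the choroid plexus sum rose. These sums rest on few genes. Under 1 CPM in every library were 6 of 13 meningeal, 7 of 12 endothelial and 7 of 12 choroid plexus markers. Some lists share genes, so their sums are not separate. Slc1a3 and Sox9 are in the radial glia and astrocyte lists. The oligodendrocyte list shares Cspg4 with the endothelial and Pdgfra with the meningeal list. Btg2, an intermediate progenitor marker here, is also among the p53 targets below. Whether a shift in cell makeup plays a part in the results below was not tested, and in bulk RNA fewer cells of a type and less RNA per cell cannot be told apart.

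Among 87 lists of pathways, families and markers, 37 had at least 4 members called in one direction at no less than 2 times the share of all genes. Of these 37, cholesterol synthesis, mitosis, deoxynucleotide supply, DNA replication, recombination repair, microcephaly genes, the tricarboxylic acid cycle, the interferon response and the FGF homologues had higher members called and none lower, and the vacuolar proton pump had lower members called and none higher. These shares stand beside 11.9% higher and 12.8% lower over all genes.

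**Figure D1:**
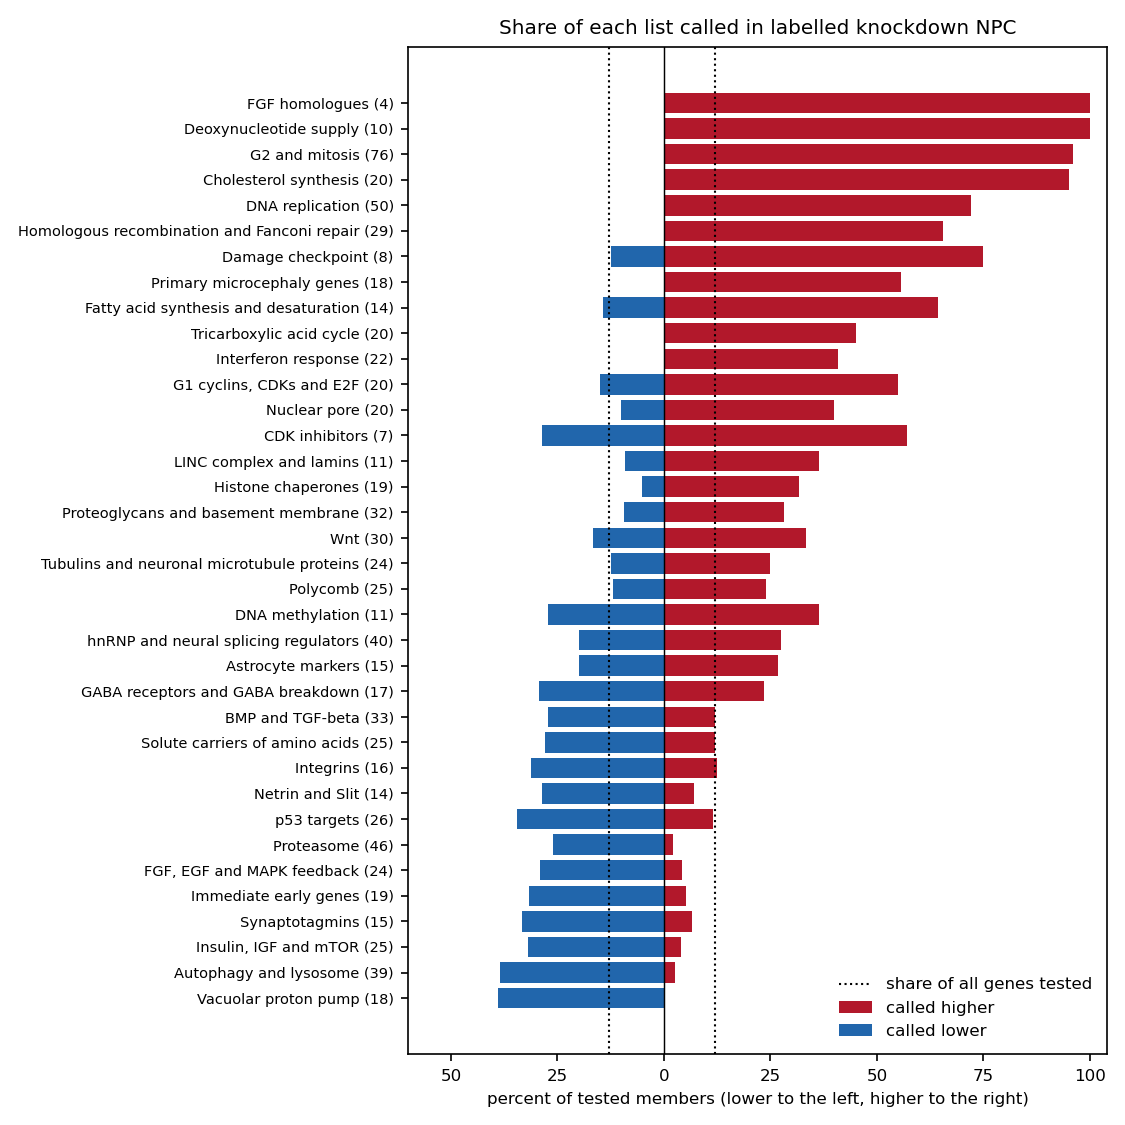
Share of tested members called higher (to the right) or lower (to the left) in labelled knockdown NPC for 36 of the 37 lists, with the number tested in brackets; dotted lines mark 11.9% higher and 12.8% lower over all 14258 genes. Cholesterol synthesis (95%) and mitosis (96.1%) were called almost throughout and in 1 direction, while hnRNP, DNA methylation and GABA lists were split between directions.

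**Figure D2:**
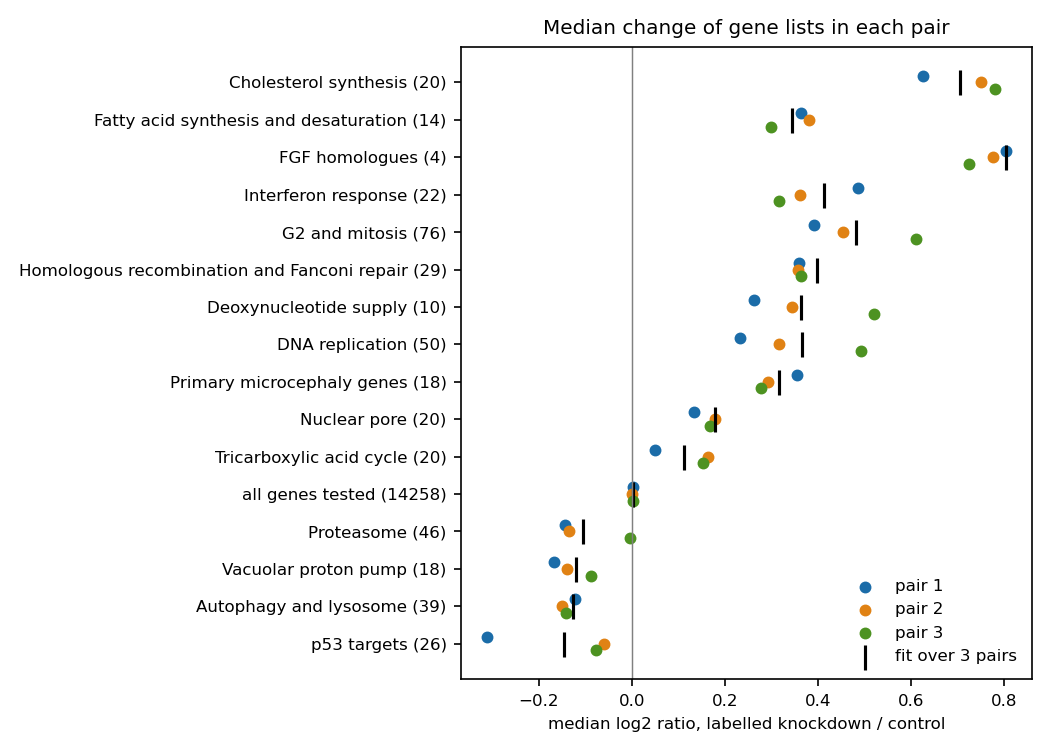
Median log2 ratio of labelled knockdown to control over the tested members (number in brackets) of 15 lists and of all genes, in pairs 1, 2 and 3 (points) and in the fit over the 3 pairs (bar). The medians of all genes lie at 0.00, and the mitosis medians at 0.39, 0.45 and 0.61.

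Genes of G2 and mitosis rose together. All 76 tested members had a higher level in labelled knockdown in each of the 3 pairs, beside 3876 of the 14258 genes tested. Of the 76, 73 passed the test, none lower, with a median log2 fold change of 0.48 against 0.00 for all genes. In the single pairs the median was 0.39, 0.45 and 0.61. By role, 18 of 18 cyclins, kinases and phosphatases passed, 19 of 19 mitotic kinesins and spindle proteins, 15 of 17 kinetochore and centromere proteins, 10 of 10 condensin and chromosome proteins and 11 of 12 exit and cytokinesis proteins. Their medians lay close together, from 0.45 to 0.51. The sum of the 76 genes was 8092, 6262 and 5024 CPM of library totals in controls 1, 2 and 3 and 10856, 8572 and 7383 in labelled knockdown, so the groups overlapped while every pair rose. Control library 1 lay above labelled knockdown library 3. Without the pairs none of the 76 passed in edgeR (34 at an unadjusted p under 0.05), and leaving out pair 1, 2 or 3 left 75, 69 and 68 higher.

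Mastl, the Greatwall kinase that holds the phosphatase PP2A-B55 in check during mitosis, stood at 33.2, 22.9 and 21.4 CPM in controls and 54.1, 43.9 and 41.4 CPM in labelled knockdown, with no overlap (0.86 ± 0.07 SE on the log2 scale, adjusted p = 2.64e-06). It lies on chromosome 2 (23115606 to 23156024, minus strand). Cdc25c, a phosphatase that activates Cdk1, stood at 26, 18 and 16.3 CPM in controls against 44.3, 31.8 and 27.9 in labelled knockdown, again without overlap (log2 fold change 0.79). The kinesin Kif20a, which acts at the central spindle in cytokinesis, stood at 91.1, 66.9 and 54 CPM in controls against 137, 115 and 94.7 in labelled knockdown (0.72 ± 0.06 SE on the log2 scale, adjusted p = 2.39e-06). Mki67, the proliferation marker that coats mitotic chromosomes, stood at 604, 419.8 and 326 CPM in controls and 868, 573 and 464 CPM in labelled knockdown (log2 fold change 0.49). For Mki67 the groups overlapped, since control library 1 exceeded labelled knockdown libraries 2 and 3, yet every pair rose by 0.45 to 0.52. The centromere protein genes Cenpf and Cenpa rose by 0.60 and 0.63 and the condensin subunit gene Ncapd2 by 0.61. Among 18 tested primary microcephaly genes, whose loss gives a small brain and many of which act at centrosome or spindle, 10 rose and none fell (median 0.32), 1 fall was called without pair 1, and without the pairing edgeR passed none (4 at an unadjusted p under 0.05). Aspm, which acts at spindle poles, stood at 145, 107 and 85.2 CPM in controls against 232, 161 and 128 in labelled knockdown (log2 fold change 0.62), the centriole gene Stil rose by 0.65, and Mfsd2a, a lipid transporter rather than a division protein, by 0.95.

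Promoters of the mitosis genes often carry the cell cycle homology region, the CHR, spelled TTTGAA and read on either strand. In RefSeq windows (GRCm38.p6) of 250 bases before to 50 after each gene start, it was found for 41 of the 65 mitosis genes with a window (63.1%), against 14% of 10729 tested genes and 17.9% of all 32851 windows. The list was chosen with the results known, and a match is a description of letters, not of binding. Stretches from Top2a, the topoisomerase that untangles chromosomes (log2 fold change 0.53), Ccnb2, a mitotic cyclin (log2 fold change 0.59), Mki67 and Ncapd2 are shown 5′ to 3′ with 1 match in capitals. In this order the matches shown start at -179, -167, -116 and -123 bases from the gene start. Top2a, Ccnb2 and Mki67 each have another match nearer the gene start, at -23, 5 and -98.
Top2a (chr11:99024343-99024388, minus strand): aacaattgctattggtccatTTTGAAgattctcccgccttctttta
Ccnb2 (chr9:70421696-70421741, minus strand): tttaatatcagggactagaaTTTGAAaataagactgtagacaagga
Mki67 (chr7:135716470-135716515, minus strand): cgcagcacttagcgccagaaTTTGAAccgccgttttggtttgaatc
Ncapd2 (chr6:125191684-125191729, minus strand): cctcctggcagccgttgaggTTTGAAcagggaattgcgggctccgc
In DNA replication genes the CHR was in 7 of 41 (17.1%). The CCAAT box, spelled CCAAT, was in 44 of the 65 mitosis genes (67.7%) and in 43.2% of tested genes.

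**Figure D3:**
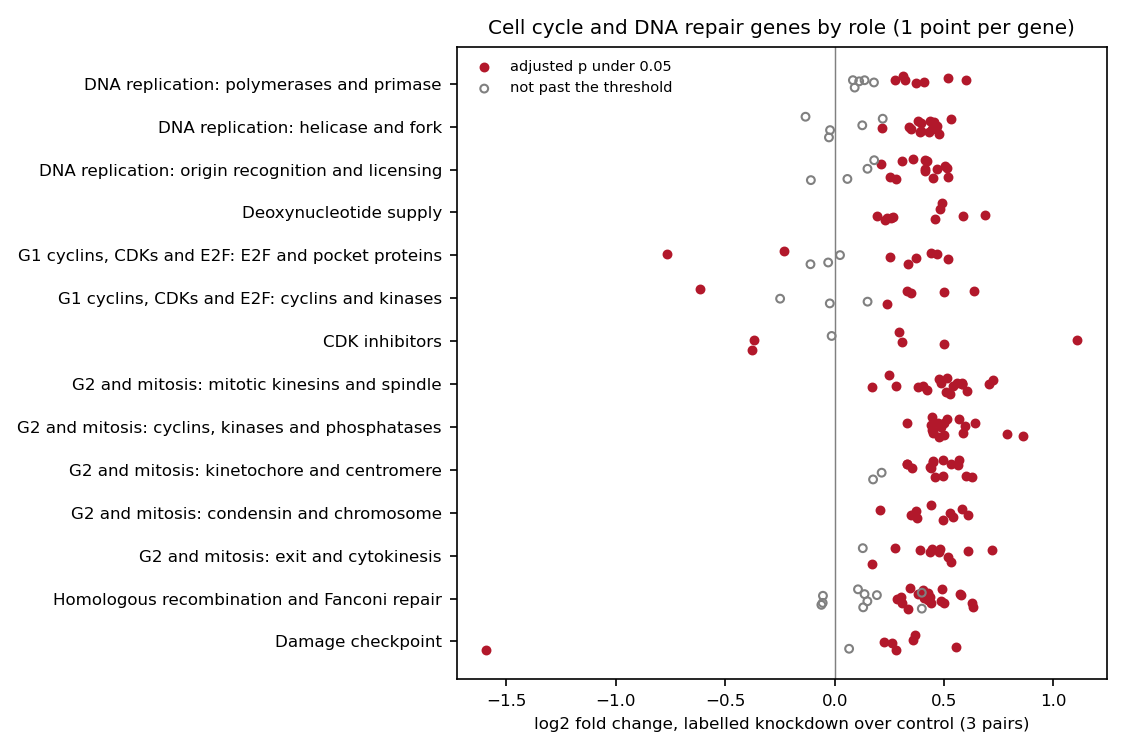
Log2 fold change (horizontal axis, 3 pairs) of each tested cell cycle and repair gene by role, filled where the adjusted p was under 0.05. All 76 mitosis genes lie to the right of 0, whereas G1 regulators and CDK inhibitors lie on both sides.

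DNA replication genes rose as well. Of 50 tested members 36 passed, all higher (72%), with a median of 0.37 overall and 0.23, 0.32 and 0.49 in the pairs. Origin recognition and licensing gave 14 of 18, helicase and fork proteins 15 of 20, and polymerases and primase 7 of 12. Prim1, the primase subunit that lays down RNA primers, stood at 38.1, 33 and 24.1 CPM in controls and 58.4, 45.2 and 39.9 CPM in labelled knockdown, without overlap (0.60 ± 0.07 SE on the log2 scale, adjusted p = 3.45e-05). Mcm2, part of the replicative helicase, stood at 166, 127 and 105 CPM in controls against 205, 179 and 159.7 in labelled knockdown (log2 fold change 0.47), where control library 1 exceeded labelled knockdown library 3. Pole, the leading-strand polymerase, rose by 0.52 and Timeless, a fork protection protein, by 0.46. Without pair 3 the count fell to 24 of 50, without pair 1 it was 38, and without the pairing edgeR passed none (13 at an unadjusted p under 0.05).

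All 10 genes of deoxynucleotide supply rose, with a median of 0.36. Rrm2, the regulated subunit of ribonucleotide reductase, stood at 286, 225 and 171 CPM in controls and 392, 367 and 319 CPM in labelled knockdown (0.69 ± 0.07 SE on the log2 scale, adjusted p = 1.57e-05). Its groups did not overlap. Its partner subunit Rrm1 rose by 0.48, and the smallest rise was that of the deoxycytidine kinase Dck (log2 fold change 0.19). Leaving out pair 3 left 5 of the 10, pair 2 left 7 and pair 1 all 10, and without the pairing edgeR passed none (6 at an unadjusted p under 0.05).

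The E2F site TTTNNCGC, read on both strands in the same RefSeq windows, was found for 17 of the 41 replication genes with a window (41.5%), against 12 of 65 mitosis genes (18.5%) and 9.64% of tested genes (5.17% of all windows). Mcm5, of the same helicase as Mcm2, and Cdc6, which loads it onto origins, are shown with the site in capitals on either strand. They rose by 0.45 and 0.51.
Mcm5 (chr8:75109336-75109383, plus strand): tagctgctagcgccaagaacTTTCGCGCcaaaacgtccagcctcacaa
Cdc6 (chr11:98907993-98908040, plus strand): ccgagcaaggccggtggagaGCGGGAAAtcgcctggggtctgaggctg

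Regulators of G1 moved in both directions. Of 20 tested, 11 rose and 3 fell. Cyclin E2 (Ccne2), which brings cells into S phase, stood at 54.9, 48.9 and 33.4 CPM in controls against 76.6, 78.2 and 56.6 in labelled knockdown (log2 fold change 0.64), and the E2F family members E2f8, E2f2, E2f7, E2f1 and E2f6 rose by 0.25 to 0.52. Rb1, the pocket protein that restrains E2F, stood at 80.2, 73.7 and 86.6 CPM in controls and 50.1, 43.1 and 48.1 CPM in labelled knockdown, with all labelled knockdown libraries below all controls (-0.77 ± 0.06 SE on the log2 scale, adjusted p = 1.44e-06). It also passed without the pairing (adjusted p = 0.00907). Cyclin D2 (Ccnd2), abundant in cortical progenitors, stood at 2485, 2424 and 2961 CPM in controls against 1504, 1600.4 and 2068 in labelled knockdown (-0.61 ± 0.05 SE on the log2 scale, adjusted p = 5.08e-06), again without overlap, but did not pass without the pairing (adjusted p = 0.0805). The third fall was that of E2f4 (log2 fold change -0.23). Leaving out pair 3 reduced the rises to 6 and the falls to 2.

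Of 7 CDK inhibitors, which brake the cycle, 4 rose and 2 fell (median 0.29), and without pair 3 the falls came to 1. Cdkn1c, encoding p57, stood at 2.97, 2.21 and 1.86 CPM in controls and 8.73, 4.47 and 2.88 CPM in labelled knockdown, where labelled knockdown library 3 lay below control library 1 (1.11 ± 0.20 SE on the log2 scale, adjusted p = 0.00120). Cdkn2c and Cdkn1b rose by 0.50 and 0.31. Cdkn1a, encoding the p53 target p21, stood at 685, 828 and 939 CPM in controls against 459, 675 and 779.6 in labelled knockdown, lower in every pair (-0.38 ± 0.06 SE on the log2 scale, adjusted p = 0.000598), with overlapping groups. The adjusted p of Cdkn1a without the pairing was 0.388.

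Homologous recombination and Fanconi genes, which mend double-strand breaks and crosslinks at replication forks, rose in 19 of 29 cases and fell in none. Their median was 0.40, and 0.36 in each of the 3 pairs. Blm, the Bloom helicase, stood at 42.9, 33.8 and 26.1 CPM in controls against 63.2, 50 and 39.5 in labelled knockdown, higher in each pair with overlapping groups (0.57 ± 0.06 SE on the log2 scale, adjusted p = 1.7e-05). Fanci, part of the complex that is ubiquitylated at crosslinks, stood at 37.9, 31.5 and 22.7 CPM in controls against 53.3, 50.7 and 37.8 in labelled knockdown (log2 fold change 0.63), and Brca1 and Brca2 rose by 0.43 and 0.44. Leaving out pair 3 reduced the count to 12, and without the pairing edgeR passed none (7 at an unadjusted p under 0.05). Of 8 tested damage checkpoint genes 6 rose, among them the kinases Chek1 (log2 fold change 0.36) and Atm (log2 fold change 0.28) and the mediator Mdc1 (log2 fold change 0.56). The exception was Atmin, a cofactor of Atm and one of the 12 largest falls: it stood at 33.3, 31.2 and 33.8 CPM in controls and 15.1, 8.85 and 9.33 CPM in labelled knockdown (-1.59 ± 0.12 SE on the log2 scale, adjusted p = 1.51e-06). Of 7 mismatch repair genes none passed in edgeR (1 at an unadjusted p under 0.05), nor in DESeq2 or limma.

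Targets of p53 were lower more often than higher. Of 26 tested, 9 fell (34.6%) and 3 rose, with a median of -0.15. Lower in all 3 pairs were 14 of the 26, beside 3798 of the 14258 genes tested. In the pairs the median was -0.31, -0.06 and -0.08. Sesn2, a stress-induced inhibitor of mTORC1 signalling, stood at 202, 235 and 262 CPM in controls and 131, 167 and 192 CPM in labelled knockdown (-0.52 ± 0.05 SE on the log2 scale, adjusted p = 1.36e-05). Every labelled knockdown library of Sesn2 lay below every control. Eda2r, a receptor of the TNF receptor family, stood at 228, 252 and 279 CPM in controls against 157, 187 and 218 in labelled knockdown, without overlap (log2 fold change -0.44). The 3 rises were Btg2 (log2 fold change 0.48), Gtse1 (log2 fold change 0.34) and Sesn1 (log2 fold change 0.32). Without the pairing edgeR passed none of the 26 (6 at an unadjusted p under 0.05). Sesn2, Eda2r and Cdkn1a each carry one of the 3′ UTR hexamers described below. Setting aside genes with these hexamers left 4 falls and 3 rises of 19 p53 targets (median -0.13). Over all genes left by that step it was 1390 falls and 1594 rises of 12954.

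The cholesterol pathway moved almost as one. Of 20 enzymes 19 rose and none fell, with a median of 0.71, and 0.63, 0.75 and 0.78 in the pairs. The 8 mevalonate enzymes all rose (median 0.85), as did the 9 that convert lanosterol to cholesterol (median 0.69). Lss, which closes the sterol ring system, stood at 129, 91.6 and 60.9 CPM in controls and 265, 189 and 117 CPM in labelled knockdown, about a doubling in each pair although the groups overlapped (1.01 ± 0.05 SE on the log2 scale, adjusted p = 7.15e-08). Hmgcs1, which makes HMG-CoA, stood at 1134, 900.4 and 692 CPM in controls against 1932, 1733 and 1251 in labelled knockdown, without overlap (0.86 ± 0.05 SE on the log2 scale, adjusted p = 3.52e-07). Squalene synthase, Fdft1, was the member that did not pass, at 135, 110.2 and 80.8 CPM in controls against 139, 108 and 85.5 in labelled knockdown (0.03 ± 0.05 SE on the log2 scale, adjusted p = 0.705). Its exons share 774 bases with Ctsb on the opposite strand, and with the counting method not given, reads there cannot be assigned to either gene. Summed over the 20 genes the level was 2202 to 3508 CPM of library totals in controls and 3754 to 5564 in labelled knockdown, which did not overlap. Leaving out any pair left 18 higher. Without the pairing edgeR passed none, with 18 at an unadjusted p under 0.05.

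Of 7 SREBP regulators 3 rose and 1 fell, and Insig1, the retention factor that is itself an SREBP target, stood at 227, 186 and 141 CPM in controls against 356, 335 and 260.0 in labelled knockdown (log2 fold change 0.79). Among 8 efflux genes 2 fell and none rose, and the exporter Abca1 stood at 238, 253 and 352 CPM in controls against 166, 194 and 272 in labelled knockdown (log2 fold change -0.42). In fatty acid synthesis 9 of 14 rose and 2 fell. Scd1, the desaturase, rose by 0.65, Acss2, which makes acetyl-CoA from acetate, by 0.94 and Fasn by 0.50. Acly, which makes cytosolic acetyl-CoA from citrate, stood at 389, 309.7 and 267 CPM in controls and 305, 213 and 187 CPM in labelled knockdown, lower in every pair with overlapping groups (-0.47 ± 0.05 SE on the log2 scale, adjusted p = 3.56e-05), and Me1, which makes NADPH, fell too (log2 fold change -0.41). Without the pairing edgeR passed none of the 14 (4 at an unadjusted p under 0.05). Of 20 enzymes of the tricarboxylic acid cycle and its links 9 rose, led by Idh1, the cytosolic isocitrate dehydrogenase (log2 fold change 0.44), but leaving out pair 1, 2 or 3 gave 13, 3 and 1, and without the pairing edgeR passed none (6 at an unadjusted p under 0.05).

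The sterol regulatory element, searched as TCACNCCAC on both strands of the same windows, was found for 1 of 15 cholesterol genes (6.67%), Hmgcs1, and for 1.42% of tested genes. Many natural elements differ in their letters from this spelling. The CCAAT box was in 14 of the 15 (93.3%), against 43.2% of tested genes.
Hmgcs1 (chr13:119690194-119690242, plus strand): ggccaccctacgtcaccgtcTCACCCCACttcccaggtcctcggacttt

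Interferon-stimulated genes, which answer foreign RNA or DNA, rose from low levels. Of 22 tested members (the filter on low counts removed 6 of 28) 9 rose and none fell, with a median of 0.41, and 1 fall was called without pair 1. Rsad2, encoding the antiviral enzyme viperin, stood at 2.04, 3.28 and 1.73 CPM in controls and 7.89, 14.5 and 3.72 CPM in labelled knockdown (1.80 ± 0.19 SE on the log2 scale, adjusted p = 1.89e-05), the largest rise among named genes averaging 5 CPM or more. Labelled knockdown library 3 was the lowest of its group and still above all controls. Ifit1, which binds foreign RNA caps, stood at 0.573, 1.95 and 0.474 CPM in controls against 1.34, 8.62 and 1.39 in labelled knockdown, with library 2 highest in both groups (1.77 ± 0.26 SE on the log2 scale, adjusted p = 0.000252). Herc6, a ubiquitin ligase homologue, stood at 5.19, 5.65 and 4.16 CPM in controls against 10.2, 12.3 and 8.75 in labelled knockdown, without overlap, and was the member that also passed without the pairing (adjusted p = 0.0381). Both groups share the text on viral infection, and the virus of the controls is not said. The list's sum rose in pairs 1 and 2 and hardly in pair 3, from 195 to 197 CPM of library totals.

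The core of the interferon-stimulated response element, GAAANNGAA on either strand, was found for 10 of 16 of these genes (62.5%), against 8.21% of tested genes. Stretches of Rsad2, Ifit1 and Isg15, a ubiquitin-like modifier (log2 fold change 1.07), carry it in capitals; in Rsad2 and Ifit1 it reads as the reverse complement.
Rsad2 (chr12:26456543-26456591, minus strand): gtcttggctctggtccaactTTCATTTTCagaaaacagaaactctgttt
Ifit1 (chr19:34640766-34640814, plus strand): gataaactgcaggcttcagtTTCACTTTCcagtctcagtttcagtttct
Isg15 (chr4:156200862-156200910, minus strand): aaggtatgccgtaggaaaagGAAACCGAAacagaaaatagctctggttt

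**Figure D4:**
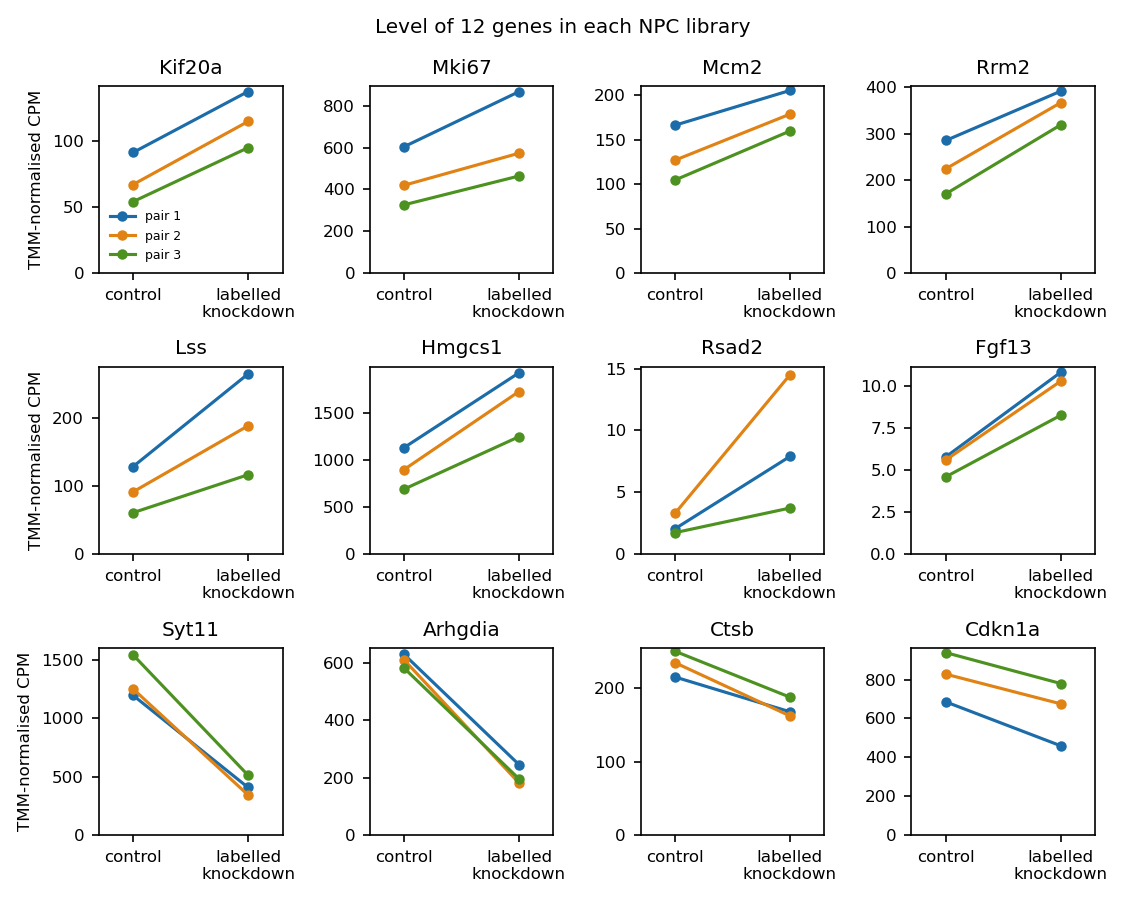
TMM-normalised CPM (vertical axis from 0) of 12 genes in each library, with lines joining same-numbered libraries. Mki67 and Lss rise in every pair although their groups overlap, whereas Syt11 and Arhgdia separate the groups.

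All 12 of the largest falls among named genes averaging 5 CPM or more, from Crispld2 (log2 fold change -1.90) to Bmp7 (log2 fold change -1.37), passed without the pairing as well, whereas of the 12 largest rises, from Rsad2 to Vit (log2 fold change 1.06), only Acot11 and Herc6 did. Crispld2, a secreted protein, stood at 31.8, 32.1 and 28.9 CPM in controls and 6.05, 10 and 8.97 CPM in labelled knockdown (-1.90 ± 0.12 SE on the log2 scale, adjusted p = 5.03e-07). Reln, the extracellular guide of cortical layering, stood at 12.5, 12.9 and 17.6 CPM in controls against 3.06, 5.35 and 4.12 in labelled knockdown (log2 fold change -1.78). Neither gene showed overlap between groups. Acot11, an acyl-CoA thioesterase, stood at 10.1, 12.4 and 9.68 CPM in controls and 25, 38.5 and 26.6 CPM in labelled knockdown (1.47 ± 0.09 SE on the log2 scale, adjusted p = 2.97e-07). Zfp422, a zinc finger gene, stood at 114, 103 and 98.3 CPM in controls against 47.3, 28.6 and 26 in labelled knockdown (log2 fold change -1.67), Mrpl34, of the mitochondrial ribosome, at 34.9, 34.9 and 35.4 CPM in controls against 14.1, 9.47 and 12.6 in labelled knockdown (log2 fold change -1.55), and Saraf, which limits store-operated calcium entry, at 131, 141 and 152 CPM in controls against 53.2, 47.1 and 57.5 in labelled knockdown (log2 fold change -1.43).

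Many of the genes that fell carry either of the hexamers ACCGAC and CCGACT in the annotated 3′ UTR (GENCODE M21, sense strand), a pair chosen on earlier results of these same data, so the shares are a description with no test. Either was found in 436 of 1783 searched genes called lower (24.5%), 102 of 1632 called higher (6.25%) and 766 of 9300 not called (8.24%), and in 10.3% of all searched. Among falls of at least 2-fold it was 41 of 97 (42.3%), among the 12 largest falls 9 and among the 12 largest rises 0. In 3 of those 9 both overlap as 1 run. Sites of Crispld2, Zfp422, Mrpl34, Saraf, Arhgdia (log2 fold change -1.56) and of the BMP ligand gene Bmp7 are shown with flanks and the match in capitals.
Crispld2 (chr8:120050753-120050774, plus strand): tccgtcctACCGACagagaaat
Zfp422 (chr6:116625175-116625197, minus strand): tgaataccACCGACTatctaaaa
Mrpl34 (chr8:71465709-71465731, plus strand): aaagtattACCGACTtaataaat
Arhgdia (chr11:120579175-120579196, minus strand): acagaaggACCGACatgcccca
Saraf (chr8:34170533-34170554, plus strand): gcccagtgCCGACTactaatta
Bmp7 (chr2:172868170-172868191, minus strand): caatgaggCCGACTtccttcag
The families differ in how many fallen members carry one: 5 of 9 for p53 targets, 2 of 12 for the proteasome, 1 of 15 for the lysosome and autophagy list and 0 of 7 for the vacuolar pump. Among the 73 mitosis genes that rose it was 3. These sets also differ in 3′ UTR length. The median was 1335 bases for the fallen p53 targets and 228 for the fallen proteasome genes. It was 780 for the fallen lysosome and autophagy genes, 632 for the fallen pump genes and 586 for the risen mitosis genes. For all genes called lower it was 1312. Whether length plays a part in these shares was not tested. Other named falls with a hexamer include Atmin, Acly, Ctsb, Twsg1, Fzd1, Fosl1, Rnf2, Map1b, Syt11, Syt1, Unc5d and Slc6a6.

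Lysosome and autophagy genes were lower with small changes. Of 39 tested 15 fell and 1 rose, with a median of -0.13, and of the 21 lysosomal members 10 fell. Ctsb, the protease cathepsin B, stood at 215, 235 and 250.4 CPM in controls against 168, 162 and 188 in labelled knockdown (-0.44 ± 0.05 SE on the log2 scale, adjusted p = 5.32e-05; without the pairing, adjusted p = 0.0516). Its groups did not overlap, and it shares the exon stretch with Fdft1 given above. The autophagy receptor Sqstm1 fell (log2 fold change -0.39), as did Becn1, which starts autophagosome formation (log2 fold change -0.34), and the sialidase Neu1 rose (log2 fold change 0.25). Leaving out pair 1 gave 19 falls and leaving out pair 2 or 3 gave 7, and the rise was not called without pair 3. Over all genes at 100 CPM or more, 19.7% were called lower.

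The vacuolar proton pump, which acidifies lysosomes, fell in 7 of 18 tested subunits and rose in none (median -0.12). Of the pump's 18 subunits 15 were lower in all 3 pairs, beside 3798 of the 14258 genes tested. Atp6v1b2, a subunit of its catalytic head, stood at 161, 176 and 191 CPM in controls and 117, 117 and 131 CPM in labelled knockdown, without overlap (-0.53 ± 0.05 SE on the log2 scale, adjusted p = 8.82e-06), and passed without the pairing (adjusted p = 0.0287). Leaving out pair 2 or 3 reduced the falls to 3 and 4. In the proteasome 12 of 46 fell and 1 rose (median -0.10). Psme3, the nuclear activator PA28 gamma and no part of the core particle, stood at 187, 176 and 179 CPM in controls and 76.5, 69.8 and 74.5 CPM in labelled knockdown, more than 2-fold lower in every pair (-1.30 ± 0.05 SE on the log2 scale, adjusted p = 1.32e-08). Its neighbours in the list were far smaller in effect: Psmb6, a catalytic subunit, changed by -0.31 and Psma3, of the outer ring, by -0.26. Without pair 2 the proteasome had 3 falls in place of 12, its rises came to 2 without pair 1, and none was called without pair 2 or 3. Psme3 and Psmb6 also passed without the pairing, with an adjusted p of 0.000893 and 0.0468. They are the 2 of the 12 fallen proteasome members that carry a hexamer.

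Growth factor signalling components were lower in part. Of 25 tested insulin, IGF and mTOR components 8 fell and 1 rose, and 4 of the 8 passed without the pairing. Without pair 1 the rises came to 4. Irs1, the docking protein of insulin and IGF receptors, stood at 115, 114 and 126 CPM in controls and 74.8, 65.6 and 71.9 CPM in labelled knockdown (-0.75 ± 0.06 SE on the log2 scale, adjusted p = 1.5e-06). Eif4ebp2, a repressor of translation initiation that mTORC1 switches off, stood at 264, 241 and 244 CPM in controls against 194, 158 and 176 in labelled knockdown (log2 fold change -0.51), and Pik3ca, the catalytic subunit of PI3 kinase, fell by a similar amount (log2 fold change -0.44). None of these 3 genes showed overlap between groups. Irs1 and Pik3ca are the 2 of the 8 fallen members that carry a hexamer. The median fall was -0.59 for carriers and -0.31 for the others. Of 24 FGF, EGF and MAPK feedback genes 7 fell and 1 rose: the FGF target Etv4 stood at 152, 157 and 160.0 CPM in controls against 119, 118 and 122 in labelled knockdown (-0.39 ± 0.05 SE on the log2 scale, adjusted p = 9.03e-05), the receptor Fgfr1 fell (log2 fold change -0.28), and Spry4, a feedback inhibitor, rose (log2 fold change 0.22). That rise did not pass once pair 2 or 3 was left out, 2 rises were called without pair 1, and leaving out pair 3 reduced the falls of this list to 4.

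The 4 intracellular FGF homologues, which are not secreted and bind sodium channels, all rose. Fgf14 stood at 11.4, 11.5 and 11.9 CPM in controls and 18.7, 27.1 and 21.2 CPM in labelled knockdown (0.93 ± 0.10 SE on the log2 scale, adjusted p = 3.58e-05), Fgf13 at 5.80, 5.61 and 4.60 CPM in controls against 10.8, 10.3 and 8.27 in labelled knockdown (log2 fold change 0.88) and Fgf11 at 11.3, 11.3 and 11 CPM in controls against 21.1, 18 and 17 in labelled knockdown (log2 fold change 0.73). For these 3 genes the groups were apart, and each passed without the pairing. Fgf12 stood at 19, 27.1 and 24.6 CPM in controls against 18.8, 34.4 and 32 in labelled knockdown, overlapping and flat in pair 1 (0.25 ± 0.08 SE on the log2 scale, adjusted p = 0.0479).

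In the BMP and TGF-beta pathway 9 of 33 fell and 4 rose. The ligand gene Bmp7 stood at 93.6, 96.3 and 95.4 CPM in controls and 39, 36.9 and 34.3 CPM in labelled knockdown (-1.37 ± 0.06 SE on the log2 scale, adjusted p = 1.92e-08), and Twsg1, an extracellular modulator of BMP ligands, at 62.5, 61 and 59.6 CPM in controls against 28.9, 24.4 and 21.2 in labelled knockdown (-1.31 ± 0.07 SE on the log2 scale, adjusted p = 2.27e-07). The groups did not overlap for either gene. Receptor gene Tgfbr1 rose (log2 fold change 0.62), as did the ligand antagonists Fst (log2 fold change 0.86) and Chrd (log2 fold change 0.66). Of 30 Wnt genes 10 rose and 5 fell. The receptor Fzd1 fell (log2 fold change -0.74), while the receptors Fzd2 and Fzd9 and the ligand Wnt7a rose (0.42, 0.68 and 0.48). Leaving out pair 3 left 6 rises and 2 falls in Wnt, leaving out pair 2 left 3 falls there, and leaving out pair 2 or 3 left 4 falls in the BMP list, whose rises came to 2 without pair 3. Immediate early genes, switched on within minutes of a stimulus, fell in 6 of 19 cases and rose in 1, with 2 rises called without pair 1 and none without pair 3. Fosl1, an AP-1 subunit at 2.29, 3.21 and 3.93 CPM in controls and 0.421, 1.04 and 1.28 CPM in labelled knockdown, had the largest change of the list (-1.81 ± 0.25 SE on the log2 scale, adjusted p = 0.000188; without the pairing, adjusted p = 0.0798). Klf4 stood at 8.55, 11.1 and 11.8 CPM in controls against 3.06, 4.08 and 4.70 in labelled knockdown (log2 fold change -1.41).

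Chromatin and nuclear transport lists rose in part. Of 20 nucleoporins 8 rose and 2 fell, and the falls were the larger: Nup160, of the ring-forming Y complex, stood at 79.4, 69.1 and 61.8 CPM in controls and 49.3, 36 and 37.3 CPM in labelled knockdown (-0.78 ± 0.06 SE on the log2 scale, adjusted p = 2.7e-06), and Nup50, on the nuclear side of the pore, at 159, 148 and 139.9 CPM in controls against 109, 93.3 and 90.4 in labelled knockdown (log2 fold change -0.61). Both carry a hexamer and neither overlapped between groups. Of 11 DNA methylation genes 4 rose and 3 fell; the replication-linked pair Uhrf1 and Dnmt1 rose by 0.53 and 0.31. In the Polycomb list, with 6 rises and 3 falls of 25, the ubiquitin ligase Rnf2 stood at 105, 106 and 109 CPM in controls against 67.9, 64 and 66.1 in labelled knockdown (-0.69 ± 0.05 SE on the log2 scale, adjusted p = 1.54e-06) while the methyltransferase Ezh2 rose (log2 fold change 0.35). Histone chaperones gave 6 rises of 19, among them Asf1b (log2 fold change 0.62) and Hjurp (log2 fold change 0.44), and 1 fall, Supt6 (log2 fold change -0.15). Of 40 hnRNP and neural splicing regulators 11 rose and 8 fell, all by less than 2-fold, with Mbnl2 at -0.43, Ptbp1 at -0.26 and Hnrnpa3 at 0.27. SR and Tra2 factors, the family of Srsf10, gave 4 rises and 2 falls of 24, near the share of all genes. Leaving out pair 3 left 4 nucleoporins, 2 Polycomb genes and 4 hnRNP regulators higher, leaving out pair 2 left 5 nucleoporins and 3 hnRNP regulators higher, and the hnRNP falls came to 2 in either case. Without pair 1, 17 hnRNP regulators were higher. Falls of the DNA methylation list came to 1 without pair 3. Histone chaperones gave 10 rises without pair 1 and 4 without pair 3, and the fall was not called without pair 2 or 3. For SR and Tra2 factors the rises came to 6, 0 and 1, and the falls to 3, 0 and 0, without pairs 1, 2 and 3.

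Several large families stayed near or under the background. Cytosolic ribosomal proteins gave 2 rises and 1 fall of 79, mitochondrial ribosomal proteins 4 and 1 of 76, respiratory chain and ATP synthase subunits 1 and 5 of 77, and the CCT chaperonin with prefoldin 0 of 14 in edgeR, where 1 was at an unadjusted p under 0.05, and 0 in DESeq2 and limma. Numbered zinc finger genes gave 19 rises and 27 falls of 319. The few calls moved with the pairs used: without pair 1, 13 mitochondrial ribosomal proteins were higher, and without pair 3 none. Zinc finger rises came to 6 and 7, and falls to 12 and 8, without pairs 2 and 3. Cytosolic ribosomal rises came to 0 without pair 2 or 3, falls to 2 without pair 1 and 0 without pair 2, and 2 genes of the chaperonin list were higher without pair 1. Respiratory chain falls came to 3 without pair 1 and to 2 without pair 2 or 3, while 5 members were higher without pair 1 and none without pair 3.

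Some genes lie across others. Of 285 genes named by the rule, 24 share exon bases with a gene on the opposite strand at 10% or more of their own level, among them Kif20a, Ccne2, Fanci, Rb1, Rnf2, Fosl1, Acss2 and Ctsb. The sources used here do not say whether counting used strand, so part of their counts may belong to the other gene.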

How the data were processed

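RNA-seq libraries of 3 control and 3 labelled knockdown NPC samples were taken from a deposited table of raw counts per gene (34102 genes). Per the submitters' processing notes the reads were aligned with HISAT2 (version not stated) to mm10; the counting program, its annotation and its use of strand are not named in the sources used here. A count of a gene does not resolve exons, so splicing was not analysed here.

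Genes were kept by filterByExpr (14258), normalised by TMM and fitted with edgeR 4.0.16 (R 4.3.3), with the replicate number as a block, and adjusted p-values are Benjamini-Hochberg over all genes tested. Only the 6 libraries entered the fit, which leaves 2 residual degrees of freedom per gene before sharing between genes. The labels do not state what a shared number means. The comparison as chosen took same-numbered libraries as pairs. Residuals from the group mean correlated at 0.48, 0.50 and 0.44 for same-numbered libraries and at -0.34 to -0.08 for other combinations. Subtracting a mean of 3 libraries in part forces the negative values. The common biological coefficient of variation was 0.057 with pairs and 0.145 without. Libraries 1 and 2 of both groups were female by Xist and Ddx3y, and libraries 3 male. Replicates differed by more than counting noise (chi-square per degree of freedom 17.1 to 42.9), so the spread between libraries limits precision as well as depth. Pair ratios use 0.5 reads as prior. The procedure was also run on counts simulated from the same paired model, which cannot test the pairing or whether the libraries are independent.

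The comparison, the 87 gene lists and the hexamers were chosen with earlier results of these data known, and the promoter motifs after the list counts, so no list test was run; a list is described by its counts and median beside those of all genes. Genes were named by a rule: Srsf10 and Nasp; the 12 largest rises and falls called, averaging 5 CPM or more, alike in all 3 pairs and not numbered gene models; up to 5 members of smallest adjusted p in lists with at least 4 called in one direction at 2 times the share of all genes; and 2 in other lists. Brca2, Ccnb2, Cdc25c, Cdc6, Dck, the E2f genes other than E2f8, Fdft1, Fzd9, Isg15, Mcm5, Mki67 and Top2a, and small sets named to account for a count, were chosen after their values were seen. Gene positions, exons and 3′ UTRs came from GENCODE M21 and promoters from RefSeq. Other settings tried were no block, DESeq2 1.42.0, limma 3.58.1, other scalings and filters, length and GC offsets, a 1.5-fold minimum, leaving out each pair and, added after the data were seen, leaving out genes with the hexamers. Some genes and 1 list that the rule names are not reported here. Figures used matplotlib 3.10.9.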

Additional observations from a re-analysis of the deposited data

How the results depend on the processing

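The counts of called genes depend on the pairing. Under the settings run no named gene changed sign. Neither did the median of any list with at least 50% of its members called in 1 direction. Medians of other lists did: without hexamer genes that of amino acid carriers went from -0.07 to 0.04. That of DNA methylation genes went from -0.02 to 0.13. Without the replicate block 50 genes were higher and 220 lower, and 270 moved in all 3 pairs; of 284 named genes other than Srsf10, 56 kept an adjusted p under 0.05. A 1.5-fold minimum left 37 higher, 77 lower and 114 in all 3 pairs. Leaving out 1 pair gave 763 to 2158 genes higher and 873 to 2218 lower. With the block kept, DESeq2 called 2437 genes, limma 3533, and other scalings, filters and the length and GC offsets 3379 to 3837; upper-quartile scaling moved the share of calls that were higher from 48.2% to 54.3%. Without hexamer genes 2984 were called.

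For recombination and Fanconi repair, whose medians in the 3 pairs differ by so little that most shifts exceed their SD, the median was 0.3829 without the block, 0.4042 in DESeq2, 0.3869 in limma, 0.415 with upper-quartile scaling, 0.3942 at 5 CPM or more, 0.3598 with length and GC offsets, 0.3896 without hexamer genes and 0.3157 to 0.3861 without a pair. The CDK inhibitor median was 0.1447 at 5 CPM or more, where fewer genes were tested, against 0.29 with the usual filter, and that of microcephaly genes 0.3924 without hexamer genes. Without a pair the FGF homologue median was 0.7556 to 0.8432 and that of fatty acid synthesis 0.3426 to 0.3895. The causes were not tested.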

Other observations

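Genes of the cell surface and skeleton moved in both directions. Arhgdia stood at 629.7, 611 and 582 CPM in controls and 246, 182 and 196 CPM in labelled knockdown (-1.56 ± 0.07 SE on the log2 scale, adjusted p = 1.75e-08). Its groups did not overlap, and it passed in edgeR without the pairing (adjusted p = 0.00555). Among 24 tubulins and microtubule proteins 6 rose and 3 fell: Map1b, a microtubule-binding protein of growing axons, stood at 210.2, 199 and 223 CPM in controls against 112, 115 and 124 in labelled knockdown (-0.85 ± 0.05 SE on the log2 scale, adjusted p = 2.87e-07). Without pair 3 the rises of this list came to 3. Of 11 genes of the nuclear envelope bridge and lamins 4 rose and 1 fell (the fall was not called without pair 2 or 3), led by Syne1, a giant anchor of the nucleus to the cytoskeleton, at 56.2, 62.5 and 55.9 CPM in controls and 118, 126 and 105 CPM in labelled knockdown (0.997 ± 0.05 SE on the log2 scale, adjusted p = 1.92e-07). All Syne1 values of labelled knockdown lay above all controls. Of 16 integrins 5 fell and 2 rose, with Itga7 lower (log2 fold change -0.84) and Itga6 higher (log2 fold change 0.46), and 2 falls were called without pair 3. Of 32 proteoglycan and basement membrane genes 9 rose and 3 fell, with Fn1 (log2 fold change 0.37) and Nid2 (log2 fold change 0.63) higher and Sparcl1 lower (log2 fold change -0.42); 4 rises were called without pair 2 and 3 without pair 3, and the falls came to 5 without pair 1 and 1 without pair 3.

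Neuronal and transport families were also mixed. Synaptotagmins, calcium sensors of vesicle fusion, gave 5 falls and 1 rise of 15 tested, and only Syt11 was abundant, at 1195, 1249.7 and 1540.4 CPM in controls and 407, 343 and 512 CPM in labelled knockdown (-1.67 ± 0.06 SE on the log2 scale, adjusted p = 1.32e-08). The classical sensor Syt1 was scarce, at 3.44, 3.78 and 2.88 CPM in controls against 1.46, 1.59 and 1.35 in labelled knockdown (log2 fold change -1.19). Without pair 2 or 3 the falls came to 3 and 2. Of 14 Netrin and Slit genes 4 fell and 1 rose, with the netrin receptor Unc5d at 5.33, 5.04 and 6.37 CPM in controls against 2.11, 1.46 and 1.49 in labelled knockdown (-1.73 ± 0.19 SE on the log2 scale, adjusted p = 3.39e-05) and without overlap; without pair 2 or 3 the falls came to 2 and 1, and without pair 1 the rises came to 2. GABA receptor and breakdown genes gave 4 rises and 5 falls of 17: the subunit gene Gabbr2 rose from low levels (1.25, 1.79 and 0.948 CPM to 2.57, 6.13 and 2.41 CPM, 1.41 on the log2 scale), and the taurine and GABA carriers Slc6a6 and Slc6a11 fell (-0.83 and -0.57), with 3 falls called without pair 2 or 3. Amino acid carriers gave 7 falls and 3 rises of 25, with Slc1a4 lower (log2 fold change -0.48) and Slc1a5 higher (log2 fold change 0.59), and 3 and 2 falls without pair 2 and 3. Among 15 tested astrocyte markers Aqp4 (log2 fold change 0.63), S100b (log2 fold change 0.63), Aldh1l1 (log2 fold change 0.41) and Gja1 (log2 fold change 0.33) rose while Gfap (log2 fold change -0.73), Sox9 (log2 fold change -0.42) and Id3 (log2 fold change -0.20) fell. Without pair 3 the falls of this list came to 1. Potassium channels, with 14 falls and 6 rises of 57, gave 6 and 3 without pair 3 and 8 falls without pair 2.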
